A study of Rattus norvegicus with 8 samples.

Results

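The genes described here encode heat shock proteins and the chaperones that work with them, measured in rat cortex after an experimental stroke. They were chosen by name: every probe of the deposited table whose gene symbol started with Hspa, Hspb, Hspd, Hspe, Hsph, Hsp90 or Dnaj, or was Bag or Cct followed by a number, or was Cryab. Hspa5 and Dnajb9 of the endoplasmic reticulum were set aside. This gave 60 genes on 101 probes, of 10984 genes with a symbol in the table, and 58 of them (93 probes) had a value on all 8 arrays and were tested. The set reaches beyond the cytosol. Hspa9, Hspd1 and Hspe1 work in mitochondria, Hspa13, Dnajb11, Dnajc3 and Dnajc10 in the endoplasmic reticulum, and Hspb11 is now named Ift25, a gene of ciliary transport.

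Cortex from the operated side of the brain was collected at 24 h from 4 Sprague Dawley rats with a transient occlusion of the middle cerebral artery (tMCAO), which stops its flow for a while and lets it return, and from 4 rats with a sham operation. Each animal's RNA, labelled with Cy5, shared an array with a Cy3-labelled pool of sham cortex RNA. No dyes were swapped, so a difference from the pool cannot be told apart from a dye effect, while tMCAO and sham animals were labelled alike. All animals were operated, and the labels give neither an age, a sex, nor the length of the occlusion. Values are log2 ratios of the animal to the pool, and 0 is the level of the pool.

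Heat shock proteins of the Hsp70 class bind unfolded stretches of other proteins in a cycle driven by ATP. J proteins (the Dnaj genes) hand them clients and start the cycle, and Hsp110 and Bag proteins help to exchange the nucleotide. Small heat shock proteins hold unfolding proteins without using ATP, Hsp90 acts late on kinases and receptors, and the Cct ring folds actin and tubulin. Many of these genes are switched on by the heat shock factor HSF1, and Hspa1a and Hspb1 are textbook stress genes of the ischaemic brain.

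HSF1 binds repeats of the bases nGAAn in alternating direction, the heat shock element. RefSeq promoters (GRCr8 assembly) were given for 48 of the 60 genes, and the 250 bases before each start were searched on both strands for a pair of units, GAANNTTC or TTCNNGAA, and for 3 units in a row, GAANNTTCNNGAA, which contains both pairs. The 3 units were found in Hspa8, Hspd1, Hspe1 and Hsph1, against 0.601% of the 27457 promoters in the table. A pair was found in 14 of the 48, against 13.4% of all promoters. The bases given for Hspa1a held no match of either kind. A match only says that these letters are present. Hspe1 (chr9:64084077-64084326, plus strand), Hsph1 (chr12:10427118-10427367, plus strand) and Hspa8 (chr8:50080264-50080513, plus strand) are shown because they hold 3 units. Hspd1 runs the other way from the same stretch as Hspe1, so both count the same element, which lies 65 to 48 bases before the Hspe1 start. Hspb1 (chr12:26432302-26432551, minus strand), Dnajb1 (chr19:41431142-41431391, minus strand) and Bag3 (chr1:192533210-192533459, plus strand) hold pairs and moved in different directions after tMCAO. Hspa12b (chr3:138799146-138799395, plus strand), which had the highest estimate of all members, held neither. The 250 bases are written 5′ to 3′ on the gene's strand, and capitals mark every match.
Hspe1: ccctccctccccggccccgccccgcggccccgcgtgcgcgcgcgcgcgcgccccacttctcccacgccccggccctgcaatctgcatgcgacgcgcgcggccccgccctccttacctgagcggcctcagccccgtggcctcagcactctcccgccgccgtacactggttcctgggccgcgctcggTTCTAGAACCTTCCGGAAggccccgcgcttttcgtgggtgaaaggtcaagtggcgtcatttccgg
Hsph1: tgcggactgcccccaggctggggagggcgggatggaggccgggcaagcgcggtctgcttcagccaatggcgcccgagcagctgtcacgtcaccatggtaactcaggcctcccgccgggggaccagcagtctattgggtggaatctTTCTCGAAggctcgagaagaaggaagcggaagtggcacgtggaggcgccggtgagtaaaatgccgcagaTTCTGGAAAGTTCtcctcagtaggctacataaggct
Hspa8: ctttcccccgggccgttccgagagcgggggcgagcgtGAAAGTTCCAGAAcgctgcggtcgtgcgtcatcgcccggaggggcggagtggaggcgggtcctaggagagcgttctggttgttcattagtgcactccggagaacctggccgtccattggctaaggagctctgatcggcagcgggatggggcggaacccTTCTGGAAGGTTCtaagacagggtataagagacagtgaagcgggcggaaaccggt
Hspb1: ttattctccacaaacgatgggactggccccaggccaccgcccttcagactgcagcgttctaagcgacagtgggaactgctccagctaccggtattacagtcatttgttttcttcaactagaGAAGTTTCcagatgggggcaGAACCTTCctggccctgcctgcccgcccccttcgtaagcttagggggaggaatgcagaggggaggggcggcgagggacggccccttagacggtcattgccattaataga
Dnajb1: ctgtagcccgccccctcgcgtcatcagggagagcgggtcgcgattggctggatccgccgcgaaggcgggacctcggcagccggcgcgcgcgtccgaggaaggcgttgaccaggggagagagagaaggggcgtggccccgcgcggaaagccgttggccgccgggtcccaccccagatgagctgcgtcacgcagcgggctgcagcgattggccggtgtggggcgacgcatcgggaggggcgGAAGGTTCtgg
Bag3: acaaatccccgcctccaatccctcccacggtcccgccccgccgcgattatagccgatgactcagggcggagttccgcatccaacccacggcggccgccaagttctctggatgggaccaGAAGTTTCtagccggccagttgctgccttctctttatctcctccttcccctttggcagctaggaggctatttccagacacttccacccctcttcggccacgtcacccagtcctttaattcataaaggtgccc
Hspa12b: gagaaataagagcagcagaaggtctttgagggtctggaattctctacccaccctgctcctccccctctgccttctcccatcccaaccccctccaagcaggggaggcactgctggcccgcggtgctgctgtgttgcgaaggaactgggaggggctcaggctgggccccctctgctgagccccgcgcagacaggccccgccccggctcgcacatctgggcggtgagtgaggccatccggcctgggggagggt

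Libraries differed in a way that touches every count given here. The SD of all log2 ratios was 0.231 to 0.259 on the sham arrays, 0.615 to 0.741 on tMCAO replicates 1 to 3 and 0.368 on tMCAO replicate 4. On the leading principal component (69.7% of the variance) that animal lay at -6.72, between the sham arrays (-36.8 to -34.3) and the other tMCAO arrays (41.9 to 57.5). Results are therefore given with and without it. Neuron markers were present in every animal: their summed Cy5 signal over 7 measured genes was 27.8 to 30.2 in sham and 14 to 21.5 in tMCAO animals, and 6 of the 7 were lower. Endothelial markers (5 of 8 higher, summed signal 8.04 to 8.66 in sham and 12.3 to 39.7 in tMCAO animals) and microglia and macrophage markers (7 of 10 higher, 10.7 to 10.9 and 16.2 to 33.0) moved the other way, and no measured marker of these 3 lists was at 0. In bulk tissue, fewer cells of a type and less RNA per cell cannot be told apart.

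The study set tMCAO animals beside sham animals to find genes that rose or fell with the occlusion. Of the 58 members, 16 were higher and 9 lower (27.6% and 15.5%), and 33 were not called, at an adjusted p under 0.05 in limma with Benjamini-Hochberg adjustment over 17928 features. Of all features, 15.0% were called higher and 16.0% lower. The median log2 difference of the members was 0.01, against -0.05 for all features. The groups did not overlap in 17 members on the higher side (13.8% of all features) and in 8 on the lower side (16.2%). Without tMCAO replicate 4, 19 members were higher (21.8% of all features) and 20 lower (24.1%). Leaving out sham replicate 3 gave 10 higher members, and leaving out sham replicate 1, 2 or 4 or tMCAO replicate 1 or 3 gave 4 or 5 lower ones. The split between directions moved with the scaling, to 5 higher and 5 lower after quantile normalization of the log ratios and to 19 higher and 4 lower with the Cy5 signal alone.

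**Figure D1:**
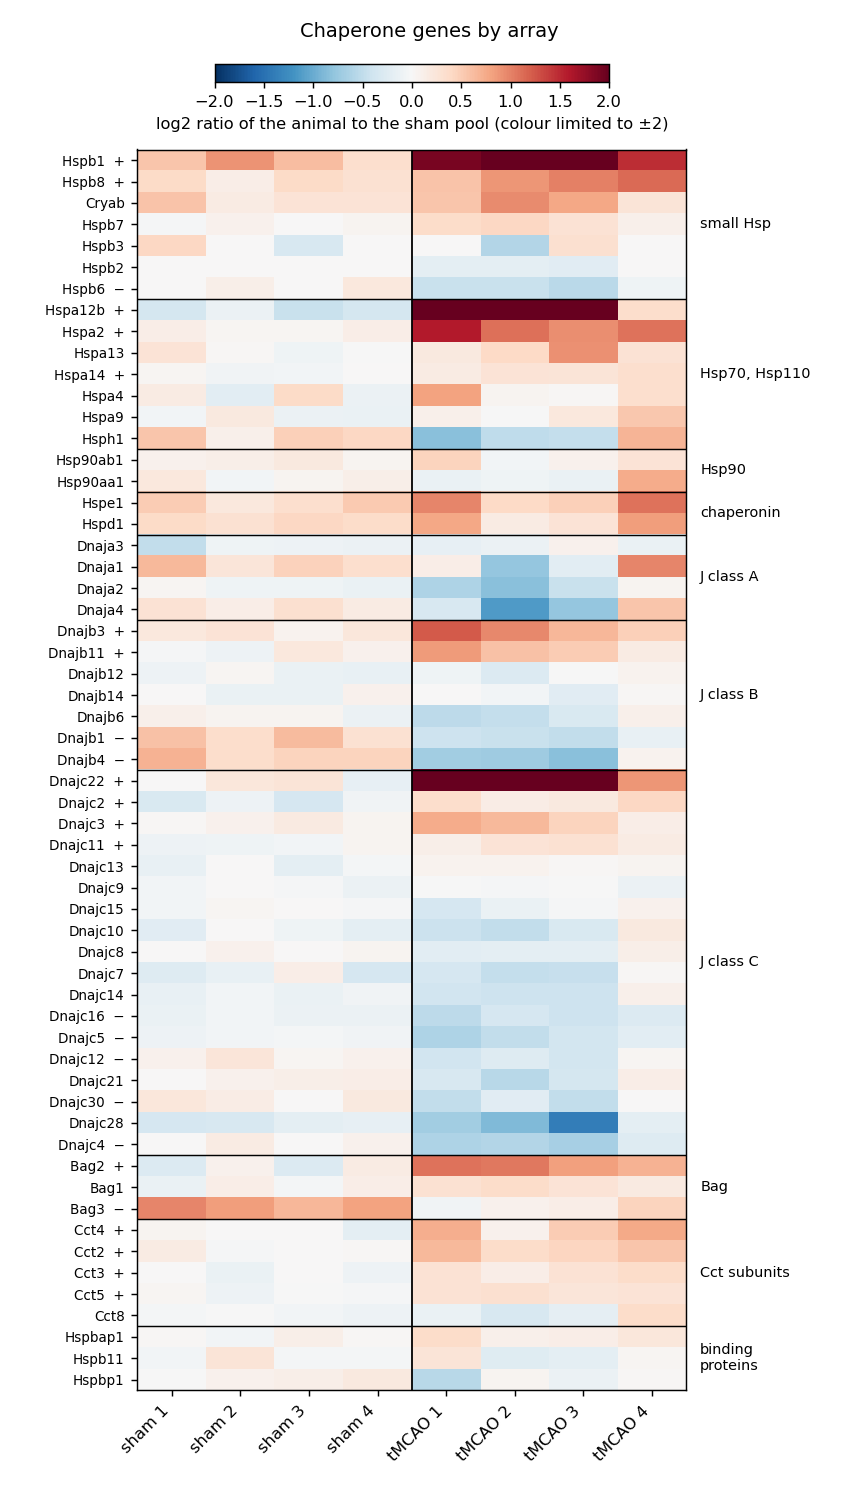
Log2 ratio to the sham pool (colour, limited to ±2) of the 58 measured members (vertical axis, by family) on the 4 sham and 4 tMCAO arrays (horizontal axis), with + and − beside genes called higher or lower in tMCAO. Hspb1, Hspa12b and Dnajc22 stand at about the colour limit on tMCAO arrays 1 to 3, and tMCAO 4 differs from those 3 arrays in many genes.

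Among the Hsp70 and Hsp110 genes, 3 of the 7 tested were higher (15.0% of all features) and none of the 7 was lower (16.0%). Hspa12b, an atypical Hsp70 known from blood vessel endothelium, lay at -0.35, -0.11, -0.45 and -0.35 in the 4 sham animals and at 2.71, 2.47, 2.13 and 0.35 in the 4 tMCAO animals. The groups did not overlap, and tMCAO replicate 4 lay close to sham. Hspa12b rose by 2.23 ± 0.46 (SE, n = 4 per group, adjusted p = 0.00962), which is 4.69-fold and 4.18- to 5.27-fold within the rounding of the deposited intensities. Without tMCAO replicate 4 the difference was 2.75. On the same 4 tMCAO arrays the median endothelial marker stood at 1.27, 1.62, 1.28 and 0.14, and the part of these cells in the Hspa12b result was not tested.

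Hspa2, an Hsp70 best known from male germ cells, was between 0.04 and 0.13 in all sham animals. In tMCAO animals it reached 1.58, 1.10, 0.93 and 1.08. All tMCAO animals, replicate 4 included, lay far above sham, and the difference was 1.09 ± 0.14 (SE, n = 4 per group, 2.13-fold, adjusted p = 0.00295). Hspa14, which with the J protein Dnajc2 forms the ribosome-associated chaperone complex, was 0.27 ± 0.07 higher (adjusted p = 0.0242). Its call was lost when sham 2, 3 or 4 or tMCAO 2 or 3 was left out, after quantile normalization (0.24) and with the Cy5 signal alone (0.28). Dnajc2 itself rose from -0.30, -0.10, -0.33 and -0.07 to 0.35, 0.15, 0.20 and 0.42, a difference of 0.48 ± 0.10 (adjusted p = 0.0102). Both partners of that complex were thus called higher, with no overlap between groups. The Hsp110 relative Hspa4 differed by 0.25 ± 0.20 (adjusted p = 0.366), the mitochondrial Hspa9 by 0.24 ± 0.13 (adjusted p = 0.202) and Hspa13 by 0.40 ± 0.16 (adjusted p = 0.0942), and none of the 3 passed the test.

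The classical stress-inducible Hsp70 genes gave no comparison. Both probes of Hspa1a had a value on sham arrays 1, 3 and 4 only, and Hspa8, the constitutive Hsp70, had one on sham array 3 only. Their Cy5 intensities there were 22.23 to 27.41 and 26.97, near the top of the scale (intensities of 19.2 and above were taken as near the ceiling). The ratios that remain were 0.20, 0.20 and 0.02 on one Hspa1a probe, 0.29, 0.17 and 0.08 on the other, and 0.19 for Hspa8. No direction after tMCAO can be read for either gene. Hspa1a also has a near-identical copy, Hspa1b, which these probes may not tell apart.

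For Hsph1, the stress-inducible Hsp110, the result depended on a single animal and on the probe. It lay at 0.55, 0.10, 0.48 and 0.42 in sham animals and at -0.84, -0.51, -0.47 and 0.68 in tMCAO animals. In these means of 2 probes, tMCAO replicate 4 was the highest of all 8 animals and replicates 1 to 3 were the lowest. With all 8 animals, 1 probe was called lower by limma at -1.16 (adjusted p = 0.0347). On that probe replicate 4 was at 0.43, inside the sham range of 0.16 to 0.78. The other probe stood at -0.19 and was not called (adjusted p = 0.599), with replicate 4 at 0.92. The difference of -0.67 ± 0.30 was not called (adjusted p = 0.115), while without tMCAO replicate 4 it was -0.99 and called (adjusted p = 0.000894).

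**Figure D2:**
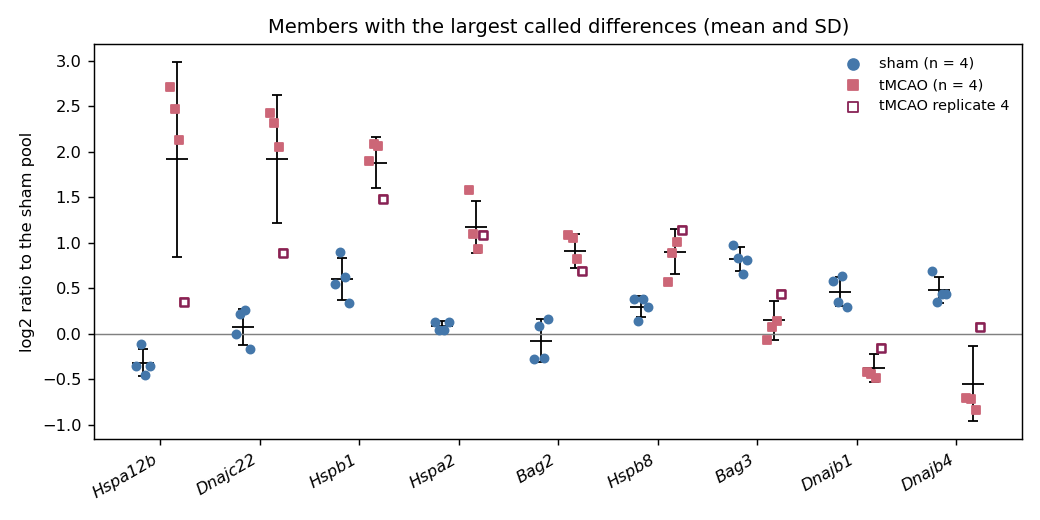
Log2 ratio to the sham pool (vertical axis) in each sham (circles) and tMCAO animal (squares, replicate 4 open) for 9 members with large called differences (horizontal axis), with mean and SD. In every gene shown the 2 groups do not overlap, and replicate 4 lies nearest to sham in Hspa12b, Dnajc22, Hspb1, Bag2, Bag3, Dnajb1 and Dnajb4.

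J proteins were called in both directions. None of the 4 class A genes was called by limma (1 was lower at an unadjusted p under 0.05), 2 of 7 class B genes were higher and 2 lower, and 4 of 18 class C genes were higher and 5 lower, beside 15.0% and 16.0% of all features. Dnajb1, the main cytosolic partner of stress-induced Hsp70, stood at 0.58, 0.35, 0.63 and 0.30 in sham animals and at -0.42, -0.44, -0.49 and -0.15 in tMCAO animals. Sham animals were all above the pool and tMCAO animals all below it. Dnajb1 fell by 0.84 (SE 0.11, n = 4 per group, 1.79-fold lower, adjusted p = 0.00339). A further Dnajb1 probe, with missing values and Cy5 intensities up to 27.44, near the top of the scale, was not tested. Dnajb4, a close relative of Dnajb1, was at 0.69, 0.35, 0.44 and 0.44 in sham animals and at -0.70, -0.71, -0.84 and 0.07 in tMCAO animals. The groups did not overlap, with replicate 4 nearest to sham. Its difference was -1.03 ± 0.19 (2.04-fold lower, adjusted p = 0.0078), and -1.23 without that animal.

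Dnaja1 and Dnaja4, class A J proteins and broad Hsp70 partners of the cytosol, were lower on tMCAO replicates 1 to 3 than on replicate 4. Dnaja1 was at 0.65, 0.24, 0.46 and 0.34 in sham animals and at 0.14, -0.77, -0.21 and 0.97 in tMCAO animals. Dnaja4 was at 0.29, 0.14, 0.32 and 0.17, and at -0.32, -1.13, -0.77 and 0.55. In both genes the tMCAO values lay on either side of sham, and neither difference was called (-0.39 ± 0.32, adjusted p = 0.379, and -0.64 ± 0.31, adjusted p = 0.147). Without tMCAO replicate 4 both were called lower, at -0.70 and -0.97, as was Dnaja2 at -0.56.

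Dnajc22, whose Drosophila counterpart acts in endocytosis, also had one of the large differences. It stood at 0.00, 0.22, 0.26 and -0.17 in sham animals and at 2.42, 2.32, 2.05 and 0.89 in tMCAO animals. No tMCAO animal came near the sham range, and the difference was 1.84 ± 0.31 (3.58-fold, adjusted p = 0.00575). The sham signal averaged only 0.07, a few rounding steps of 0.01, so the fold lay anywhere from 2.80 to 4.61 within rounding, and after quantile normalization the difference was 1.15. Dnajb3, another Hsp70 partner of class B, was 1.55-fold higher (0.63 ± 0.16, adjusted p = 0.0191), a call lost without sham replicate 3 or tMCAO replicate 2 and after quantile normalization (0.19, adjusted p = 0.293).

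Dnajb11 and Dnajc3, J proteins of the endoplasmic reticulum that serve Hspa5, were higher by 0.49 ± 0.15 (adjusted p = 0.0352) and 0.40 ± 0.13 (adjusted p = 0.0457). Dnajb11 was at -0.03, -0.10, 0.21 and 0.08 in sham animals and at 0.85, 0.59, 0.51 and 0.17 in tMCAO animals, and replicate 4 lay inside the sham range. Both calls were lost when any single array other than tMCAO replicate 4 was left out, and after quantile normalization (0.28 and 0.16). Hspa5 itself and the J protein Dnajb9, set aside from the members, were higher by 0.59 ± 0.09 (adjusted p = 0.00453) and 0.53 ± 0.10 (adjusted p = 0.00833), and after quantile normalization Hspa5 was at 0.28 and not called (adjusted p = 0.236). Dnajc11, a J protein of mitochondria, was higher by 0.26 ± 0.08 (adjusted p = 0.0361), a call lost when sham 1, 2 or 3 or tMCAO 2 or 3 was left out and after quantile normalization (0.25).

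The 5 class C genes that were lower changed by 1.21- to 1.51-fold. Dnajc5, the cysteine string protein of synaptic vesicles, was at -0.10, -0.06, -0.04 and -0.07 in sham animals and at -0.61, -0.50, -0.36 and -0.21 in tMCAO animals. In these means of 6 probes, every tMCAO animal was below every sham animal, and Dnajc5 fell by 0.35 (SE 0.10, adjusted p = 0.0275). Only 2 of the 6 probes were called lower, at -0.86 and -0.58. The brightest stood at -0.19, the others at -0.47, 0.01 and -0.01, and none of these was called. Dnajc12, a partner of aromatic amino acid hydroxylases, fell by 0.36 (SE 0.11, adjusted p = 0.0398), with replicate 4 at 0.04, the level of the lowest sham animal. Both calls were lost when any single array other than tMCAO replicate 4 was left out, and with the Cy5 signal alone, where Dnajc5 differed by -0.08 and Dnajc12 by -0.25. After quantile normalization Dnajc5 differed by -0.13 and Dnajc12 by -0.35, and neither was called. Neuron markers were lower on the same arrays (median -1.49, -0.78, -0.66 and -0.42), and their part in the Dnajc5 and Dnajc12 results was not tested. Dnajc4 was at 0.00, 0.17, 0.00 and 0.08 in sham animals and at -0.62, -0.58, -0.67 and -0.26 in tMCAO animals, with no overlap. Its difference of -0.60 ± 0.11 (adjusted p = 0.0063) stayed called when any single array was left out, but was -0.20 and not called with the Cy5 signal alone (adjusted p = 0.203). Dnajc16 (-0.28) and Dnajc30 (-0.44), the latter a mitochondrial J protein, lost their calls when a single array was left out, except tMCAO 2 or 4 for Dnajc16 and sham 3 or tMCAO 4 for Dnajc30. Dnajc16 differed by 0.00 with the Cy5 signal alone and by -0.07 after quantile normalization, and Dnajc30 (-0.49) was not called with Cy5 alone.

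Of the 3 Bag genes, 1 was called higher, 1 lower and 1 was not called, beside 15.0% and 16.0% of all features called higher and lower. Bag2, an inhibitor of the ubiquitin ligase that acts on Hsp70 clients, was at -0.28, 0.09, -0.27 and 0.16 in sham animals and at 1.08, 1.05, 0.82 and 0.69 in tMCAO animals. Every tMCAO animal was above every sham animal, and Bag2 rose by 0.98 ± 0.14 (1.98-fold, 1.47- to 2.73-fold within rounding, adjusted p = 0.00376). This is the mean of 2 unlike probes, both called higher. The difference was 1.44 on a very dim Bag2 probe (Cy5 0.02 to 0.07) and 0.52 on the brighter one (0.51 to 1.09). Bag3, the cochaperone that directs clients of Hspb8 and Hsp70 to autophagy, was at 0.98, 0.83, 0.66 and 0.81 in sham animals and at -0.07, 0.08, 0.14 and 0.44 in tMCAO animals. The order was turned: every sham animal was above every tMCAO animal, and the difference was -0.67 ± 0.12 (1.60-fold lower, adjusted p = 0.00696), or -1.27 after quantile normalization. Neither call was lost when any single array was left out. Bag1 differed by 0.26 ± 0.09, the same direction as Bag2, and was not called (adjusted p = 0.0619). Its groups did not overlap, and without tMCAO replicate 4 it was called higher (0.29, adjusted p = 0.0306).

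Small heat shock proteins were led by Hspb1, which guards actin filaments and is a marker of reactive glia. It was at 0.55, 0.90, 0.62 and 0.34 in sham animals and at 1.90, 2.08, 2.06 and 1.48 in tMCAO animals. All animals exceeded the pool, and tMCAO animals stood well apart from sham animals. Hspb1 rose by 1.27 ± 0.16 (2.42-fold, adjusted p = 0.00307) and stayed called when any single array was left out. Hspb8, the partner of Bag3, was at 0.38, 0.14, 0.38 and 0.30, and at 0.57, 0.89, 1.01 and 1.14. In these means of 2 dim probes, Hspb8 was higher in all 4 tMCAO animals, by 0.60 ± 0.13 (1.52-fold, 1.33- to 1.73-fold within rounding, adjusted p = 0.011), while Bag3 fell. On the dimmer Hspb8 probe (Cy5 0.09 to 0.20) the groups overlapped, and its difference of 0.45 was not called (adjusted p = 0.0544). After quantile normalization Hspb1 differed by 0.24 and Hspb8 by 0.17, and neither was called.

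Cryab, the lens and glial crystallin, was at 0.57, 0.16, 0.28 and 0.28 in sham animals and at 0.55, 0.94, 0.77 and 0.25 in tMCAO animals. The groups overlapped, and its difference of 0.31 ± 0.16 was not called (adjusted p = 0.168). Without tMCAO replicate 4 it was 0.43 and called (adjusted p = 0.0277), and after quantile normalization it was -0.16. Hspb6, a small heat shock protein of muscle, was lower by 0.46 on the log2 scale (adjusted p = 0.0184), a call lost without sham replicate 4 or tMCAO replicate 3, after quantile normalization (-0.39) and with the Cy5 signal alone (-0.17). Its signal was dim, at 0.145 in sham animals, and within rounding it was 1.19- to 1.58-fold lower. Skeletal muscle markers had a like summed signal in both groups (2.21 to 4.34 and 2.31 to 4.58), with 1 of 7 higher and 1 of 7 lower.

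Hsp90 was measured through single probes. Hsp90aa1, the stress-inducible form, was at 0.21, -0.05, 0.05 and 0.12 in sham animals and at -0.14, -0.08, -0.14 and 0.74 in tMCAO animals. Replicate 4 was far above the 7 other animals. The difference of 0.02 ± 0.20 was not called (adjusted p = 0.959), and it was -0.20 without replicate 4. Hsp90ab1, the constitutive form, differed by 0.07 ± 0.12 (adjusted p = 0.65). The bright probes, 2 for each gene, had missing values and were not tested. On the 2 bright Hsp90ab1 probes, tMCAO arrays 2 and 3 stood at -0.26 and -0.26 and at -0.05 and -0.31. The sham arrays there ranged from -0.15 to 0.20. Cy5 intensities on these probes were 19.32 and higher, near the ceiling. tMCAO arrays 1 and 4 had no value there, and were the highest tMCAO arrays on the complete probe (0.45 and 0.27). No direction after tMCAO can be read from the bright probes.

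The mitochondrial chaperonin genes share the promoter printed for Hspe1. Their tMCAO animals had the same order, as they also had in other members, among them Dnaja1, Dnaja4, Dnajc2, Cct4 and Cct8. The share of all features with this order is not given here. A link between this order and the promoter was not tested. Hspe1 was at 0.50, 0.21, 0.34 and 0.53 in sham animals and at 0.97, 0.40, 0.48 and 1.09 in tMCAO animals. Hspd1 was at 0.38, 0.30, 0.42 and 0.37, and at 0.78, 0.16, 0.28 and 0.84. Both were highest on tMCAO replicates 1 and 4, the groups overlapped, and neither difference was called (0.34 ± 0.17, adjusted p = 0.162, and 0.15 ± 0.16, adjusted p = 0.5). After quantile normalization the differences were -0.14 and -0.26.

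Of the 5 subunits of the Cct ring measured, 4 were higher (15.0% of all features) and none was lower. Cct2 was at 0.17, -0.03, 0.01 and 0.02 in sham animals and at 0.65, 0.37, 0.43 and 0.55 in tMCAO animals. Cct4 was at 0.05, 0.00, 0.00 and -0.20, and at 0.73, 0.09, 0.50 and 0.75. Replicate 4 was as high as the other tMCAO animals in both genes, and neither showed overlap. Cct2 rose by 0.46 ± 0.09 (adjusted p = 0.00856), Cct4 by 0.56 ± 0.15 (adjusted p = 0.0251), Cct3 by 0.32 ± 0.08 (adjusted p = 0.0187) and Cct5 by 0.31 ± 0.07 (adjusted p = 0.0138). Cct8 was at -0.13, -0.32, -0.18 and 0.36 in tMCAO animals and differed by -0.02 ± 0.14 (adjusted p = 0.929). The family's median difference was 0.32, and also 0.32 after quantile normalization, where no subunit was called by limma (4 were higher at an unadjusted p under 0.05). Cct4 lost its call when any single array other than tMCAO 2 or 4 was left out, and Cct3 without sham replicate 4. Without the probes near the ceiling, Cct3 (0.13) and Cct5 (0.19) were not called, and with the Cy5 signal alone Cct5 (0.26) was not.

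Genes that work with the chaperones were taken from 4 lists of 54 genes outside the name rule, of which 45 were measured. Of these, 9 were higher and 8 lower (20.0% and 17.8%, against 15.0% and 16.0% of all features), and the counts were 4 and 2 after quantile normalization and 8 and 1 with the Cy5 signal alone. The lower count was 4 or 5 when any single array other than tMCAO replicate 4 was left out, and 12 without that one. Among 9 chaperonin and prefoldin partners 4 were higher. Tcp1, a further subunit of the Cct ring, was at 0.04, -0.09, 0.00 and 0.06 in sham animals and at 0.69, 0.53, 0.54 and 0.80 in tMCAO animals. It rose by 0.64 ± 0.09 (adjusted p = 0.00349) with no overlap, and so did the Cct cofactor Pdcl, at 0.65 ± 0.14 (adjusted p = 0.0128, and -0.04 with the Cy5 signal alone).

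Of 23 cochaperones outside the rule, 7 were lower (16.0% of all features), 1 was higher (15.0%) and 15 were not called. St13, which holds Hsp70 in its client-bound state, rose by 0.62 ± 0.11 (adjusted p = 0.00584), and was 0.36 and not called after quantile normalization. Stip1, which bridges Hsp70 and Hsp90, was at 0.32, 0.18, 0.34 and 0.30 in sham animals and at -0.14, -0.44, -0.22 and 0.00 in tMCAO animals. Sham animals were all above the pool and no tMCAO animal was, a difference of -0.49 ± 0.10 (adjusted p = 0.011), which was 0.15 with the Cy5 signal alone. Cdc37, which brings kinases to Hsp90, fell by 0.57 (adjusted p = 0.0243) and Tomm34, a cochaperone of mitochondrial import, by 0.54 (adjusted p = 0.0105). With the Cy5 signal alone neither was called (-0.35 and -0.29), and Cdc37 also lost its call after quantile normalization (-0.37) and when sham 1, 3 or 4 or tMCAO 2 or 3 was left out. Hsf1 itself rose by 0.26 ± 0.08 (adjusted p = 0.0334), a call lost after quantile normalization (0.21) and when sham 1, 2 or 4 or tMCAO 2 or 3 was left out.

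The study's pool also let each group be set against the same reference. Both groups share that pool and 1 estimate of spread, and the pool's own spread is not part of it. In sham animals 1 member, Bag3, was called above the pool (0.0335% of all features were called higher and 0.0167% lower). No member was called below it by limma, where 8 of 58 members were above and 2 below the pool at an unadjusted p under 0.05, as were 829 and 583 of all 17928 features. Bag3 stood at 0.82 ± 0.09 (SE, adjusted p = 0.0308). When any 1 sham array or tMCAO replicate 2 or 3 was left out it stood at 0.77 to 0.87 and was not called (adjusted p = 0.0716 to 0.21). Without tMCAO replicate 4, 4 members were called above the pool in sham animals (0.368% of all features higher, 0.106% lower). Hmox1, the haem oxygenase induced by stress, from the lists outside the rule, stood at 0.77 in sham animals (adjusted p = 0.0308). Without sham replicate 1 or 4 no feature was called against the pool in sham animals, so this call was lost too. Between tMCAO and sham, Hmox1 was higher by 0.48 ± 0.12 (adjusted p = 0.0165), but stood at -0.46 after quantile normalization.

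In tMCAO animals 23 members were called above the pool (22.6% of all features) and 15 below it (26.3%). Leaving out tMCAO replicate 1, 2 or 3 gave 6, 7 and 7 members below the pool, and leaving out replicate 4 gave 20 (29.3% of all features). Dnajb1 was called below the pool at -0.37 (adjusted p = 0.0052) and Dnajb4 at -0.55 (adjusted p = 0.0108), and their sham means of 0.46 and 0.48 were not called above it (adjusted p = 0.145 and 0.369). Bag3 was at 0.15 in tMCAO animals and not called. Hspb1 stood at 0.61 in sham and 1.88 in tMCAO animals.

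**Figure D3:**
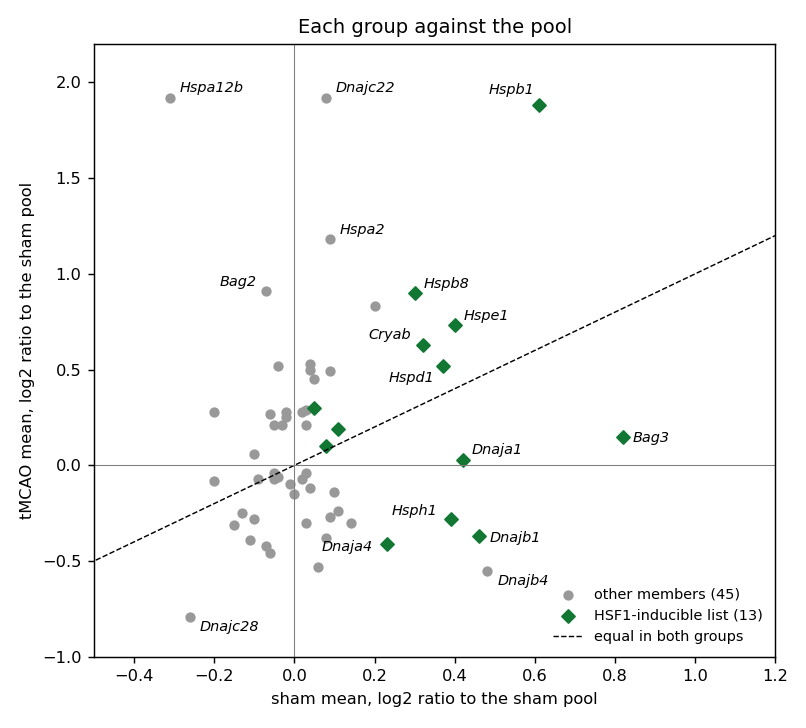
Mean log2 ratio to the pool in sham animals (horizontal axis) and in tMCAO animals (vertical axis) for the 58 members, with the 13 measured genes of the HSF1-inducible list as diamonds. All 13 diamonds lie right of 0, and Bag3 is the farthest right at 0.82.

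A list of 17 chaperones known to be induced by HSF1, all but 4 of them measured, shows this across animals. Its median was 0.50, 0.16, 0.38 and 0.30 in sham animals and 0.45, 0.05, 0.08 and 0.68 in tMCAO animals, where the median of all features was 0.00 on every array. Sham and tMCAO animals overlapped, and tMCAO replicates 2 and 3 were the lowest. After tMCAO, 2 of the 13 were higher than sham (Hspb1, Hspb8) and 2 lower (Bag3, Dnajb1), near the 15.0% and 16.0% of all features. The counts were 3 and 5 when tMCAO replicate 4 was left out (21.8% and 24.1% of all features). Hspb1, Bag3 and Dnajb1 each hold a pair of units in the promoters printed for them. In the authors' deposited table, 3.12% to 11% of the member probes with a value on a sham array had a p-value below 0.01 against the pool, compared with 1.88% to 2.73% of all probes. On the tMCAO arrays the authors' deposited table gave 36.2%, 40.0%, 35.4% and 31.2% of member probes, and 35.4%, 33.6%, 29.0% and 11.7% of all probes.

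**Figure D4:**
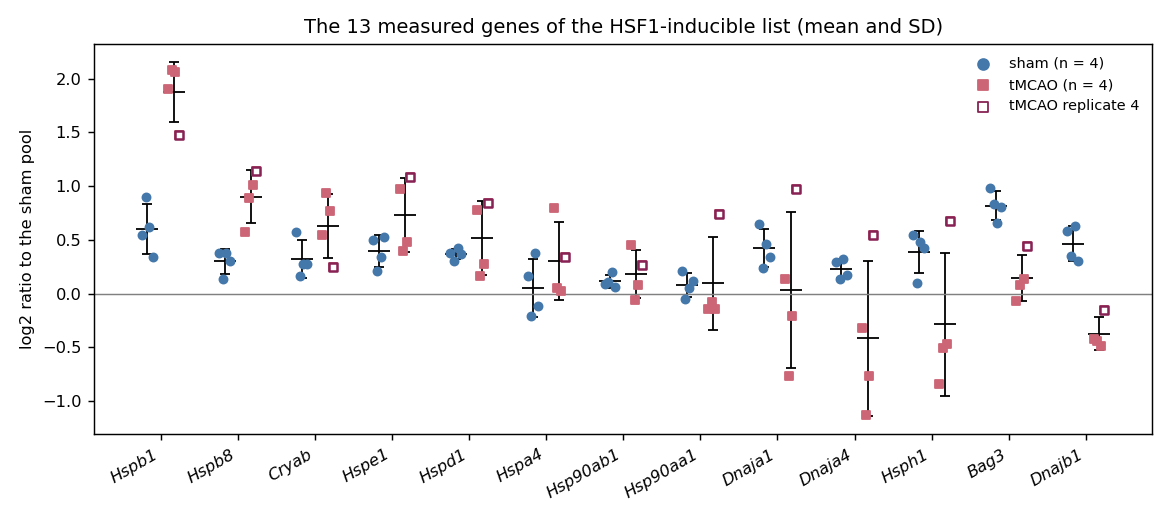
Log2 ratio to the sham pool (vertical axis) of the 13 measured genes of the HSF1-inducible list (horizontal axis) in each sham (circles) and tMCAO animal (squares, replicate 4 open), with mean and SD. Hspb1 lies above and Bag3 and Dnajb1 lie below sham in all 4 tMCAO animals, while replicate 4 is the highest of the 8 animals in Hsp90aa1, Dnaja1, Dnaja4, Hsph1, Hspb8, Hspd1 and Hspe1.

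tMCAO replicate 4 was above the other 3 tMCAO animals in 34 of the 58 members (58.6%), where this held for 31.9% of all features, and below them in 11 members, against 34.1% of all features. In the HSF1-inducible list it was the highest tMCAO animal in 9 of 13 genes. Dnaja1 (0.97), Hsp90aa1 (0.74), Hsph1 (0.68) and Dnaja4 (0.55) were higher in it than in any sham animal. This is 1 animal, and no test was made.

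The 33 members that were not called differed by -0.67 to 0.40. Without tMCAO replicate 4, 3 of them were called higher (Bag1, Cryab, Hspb7) and 11 lower, 5 of these J proteins of class C and 3 of class A. Leaving out that animal also raised the calls over all features, from 15.0% to 21.8% higher and from 16.0% to 24.1% lower. Dnajc28, a mitochondrial J protein, was at -0.34, -0.32, -0.20 and -0.17 in sham animals and at -0.70, -0.88, -1.39 and -0.19 in tMCAO animals. In these means of 2 unlike probes, replicates 1 to 3 were below all sham animals and replicate 4 was among them. The difference was -0.53 ± 0.22 (adjusted p = 0.0989). It was -0.86 on the dimmer Dnajc28 probe (Cy5 0.04 to 0.11) and -0.20 on the brighter one (0.17 to 0.40). On the brighter probe tMCAO replicate 1, at -0.14, was above all sham animals. Hspb7, a small heat shock protein of heart muscle, differed by 0.26 ± 0.09 (adjusted p = 0.0507). The proteins that bind heat shock proteins, Hspbp1 (-0.24 ± 0.14), a nucleotide exchange factor of Hsp70, and Hspbap1 (0.18 ± 0.08), a partner of Hspb1, were not called, nor was Hspb11 (-0.07 ± 0.13).

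Probes of a gene did not always move alike, and gene values are means over probes. No member had probes called in both directions, which 1.45% of the 3518 genes with several probes had. The 3 brightest of 5 Cct5 probes were higher (0.76, 0.65 and 0.42, each called), and the 2 dim ones stood at -0.11 and -0.19. Cct8 had 1 probe called higher at 0.44, its brightest, beside -0.26 and -0.24 on dimmer ones, so its mean near 0 hides a called probe. Dnajc3 rested on 1 probe at 1.04, with the other at -0.23. The 3 Dnajb6 probes, of a J protein that keeps polyglutamine proteins soluble, gave -0.65 (called), -0.59 and 0.26. The 2 brighter Hspa9 probes were each called higher (0.43 and 0.38) and the dimmest stood at -0.10.

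**Figure D5:**
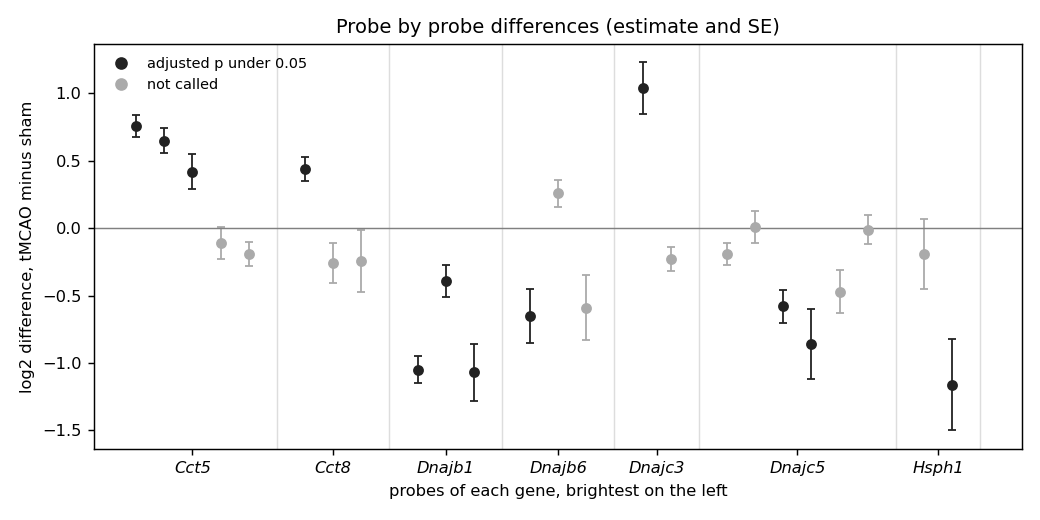
Log2 difference between tMCAO and sham (vertical axis, estimate and SE) for each complete probe of 7 members with several probes (horizontal axis, brightest on the left), dark where the probe was called. The 3 brightest Cct5 probes are called higher, and the 3 complete Dnajb1 probes are called lower.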

How the data were processed

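The data were 2-colour Agilent arrays of rat cortex RNA, 4 tMCAO and 4 sham animals, called biological replicates in the labels, each against a pool of sham cortex RNA. The tool listed in the submitters' processing notes is Agilent Feature Extraction 8.5.1.1. Per the file headers, the deposited table holds 1 intensity per channel, probe and array, given by the authors in steps of 0.01, with the authors' p-value for the array's 2 channels. The scaling of the intensities and the error model behind the p-value are not given in the sources used here. The deposited series values, on a log10 scale, matched the ratio of the deposited intensities and served as an alternative.

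From 23609 probes, 233 with a missing value were left out (165 of them near the ceiling of the scale). log2(Cy5/Cy3) of the other 23376 was averaged per symbol, which gave 17928 features, 10881 with a symbol. Outdated symbols were replaced through RefSeq's rat genes (GRCr8), 26 probes whose symbol had turned into a date were not named, and no probe was placed on the genome. A mean per group was fitted to all features by lmFit and eBayes of limma 3.58.1 (R 4.3.3), 2-sided and without a replicate block. The Benjamini-Hochberg adjustment ran over the whole table, and called means an adjusted p under 0.05. The fit was tested on simulated data. A range within rounding moves each intensity by 1 rounding error in the direction that changes the difference most, and was chosen after seeing the data.

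Named are the called members by size of difference, the measured genes of the HSF1-inducible list, members called in sham animals, up to 3 of each family by signal, members with missing values or probes that go opposite ways, and called partners by size. Bag1, Cct2, Cct8, Dnaja2, Dnaja3, Dnajb6, Dnajc8, Dnajc9, Dnajc11, Dnajc14, Dnajc28, Hspa9, Hspa13, Hspa14, Hspb2, Hspb7, Hsf1 and Hmox1 were named after their values were seen. The members and all lists were chosen with earlier results of these data known. The other marker lists showed, of the genes measured, 1 higher and 3 lower of 7 for astrocytes, 0 and 1 of 9 for oligodendrocytes, 3 and 1 of 7 for pericytes and smooth muscle, 5 and 1 of 7 for meningeal fibroblasts, and, by limma, 0 of 4 for neutrophils and 0 of 3 for red blood cells, also at an unadjusted p under 0.05. The alternatives were other scalings, filters, variance models, probe rules and thresholds, a replicate block, and leaving out each array.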

Additional observations from a re-analysis of the deposited data

Results flagged for a closer look

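In 8 of the 116 groups of 4 animals looked at, 1 animal lay far from the other 3 for a member gene, by the critical gap of Dixon's test. Chance gives about 1 in 20 such groups, and 8 of 116 is near that. The share over all features is not given here. In 6 of the 8 the animal was tMCAO replicate 4. Across the whole table that animal was above the other tMCAO animals for 31.9% of features and below them for 34.1%.

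Hsp90aa1 stood at 0.74 on tMCAO replicate 4, against -0.14 to -0.08 in the other tMCAO animals. Dnajb4 stood at 0.07 on the same array, against -0.84 to -0.70. Dnajc14, which acts on receptors leaving the endoplasmic reticulum, was at 0.10 there, against -0.42 to -0.39. Dnajc8, a J protein found with splicing factors, was at 0.11, against -0.21 to -0.19. Hspb2, a small heat shock protein of muscle measured at a dim signal, was at 0.00, against -0.22 to -0.19. Dnajc9, a J protein that also binds histones, was at -0.11, against -0.02 to -0.01. On tMCAO replicates 1 to 3 its 2 probes went opposite ways and cancelled in the mean. A dim Dnajc9 probe was at 0.26, 0.49 and 0.42, and the other at -0.29, -0.53 and -0.44. Both were at -0.11 on replicate 4. In sham animals, the mitochondrial J protein Dnaja3 was at -0.49 on replicate 1, against -0.12 to -0.09, and Hspb11 at 0.26 on replicate 2, against -0.05 to -0.04. The values are log2 ratios to the pool.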

How the results depend on the processing

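Over 60 named genes and all alternatives, 1002 of 1197 values kept their direction and side of the threshold, 136 lost the call, 35 gained it and 24 changed sign. The cause of these changes was not tested, except that quantile normalization, by its construction, gives all arrays the same spread, and that a stricter threshold calls fewer genes. The main counts were 16 higher and 9 lower members, 9 higher and 8 lower partners, and 2 higher and 2 lower genes of the HSF1-inducible list. With quantile normalization they were 5 and 5 members, 4 and 2 partners and 0 higher HSF1 genes, with 8 members above the pool in sham and 4 below it in tMCAO animals. With the Cy5 signal alone, 4 members and 1 partner were lower, and the members' median was 0.13. At an adjusted p under 0.01, 6 members were higher and 4 lower, 5 partners higher and 0 lower by limma, 1 HSF1 gene was higher, 0 members were above the pool in sham and 6 below it in tMCAO animals. With array weights, 19 members and 5 HSF1 genes were lower and 7 members were above the pool in sham animals; with the brightest probe or with every probe on its own, 2 were.

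Leaving out 1 array gave 10 to 19 higher and 4 to 20 lower members (median 0.00 to 0.08), 7 to 13 higher and 4 to 12 lower partners, and 2 to 3 higher and 2 to 5 lower HSF1 genes. Against the pool it gave 0 to 4 higher and 0 to 0 lower members in sham, and 22 to 24 higher and 6 to 20 lower ones in tMCAO animals. Sham and tMCAO animals share replicate numbers, and the sample titles do not say whether these mark pairs. The deviations of same-numbered animals correlated at 0.042, -0.0398, 0.0159 and -0.0459. Such values cannot exclude a pairing, since they were taken over all features at once. With the replicate number as a block, 9 members were higher, 3 partners lower and 0 members above the pool in sham animals.

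Signs changed with quantile normalization for Cct8 (0.12), Cryab (-0.16), Dnajc14 (0.05), Hmox1 (-0.46), Hsp90ab1 (-0.05), Hspd1 (-0.26) and Hspe1 (-0.14). With Cy5 alone they changed for Cct8 (0.21), Dnajc14 (0.07), Dnajc9 (-0.02), Hspb7 (-0.08), Pdcl (-0.04) and Stip1 (0.15), with the brightest probe for Cct8 (0.44) and Dnajc9 (-0.24), and with array weights for Hsp90aa1 (-0.17) and Hspd1 (-0.01). Without 1 array they changed for Cct8 (-0.16 to 0.07, and 0.02 without tMCAO 3), Dnajc9 (-0.01 to 0.03), Hsp90aa1 (-0.20 without tMCAO 4 to 0.10, and -0.03 without sham 2), Hsp90ab1 (-0.02 to 0.16) and Hspb11 (-0.17 to 0.01). Of these genes only Hmox1, Pdcl and Stip1 were called.

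Signal limits these results at both ends. Hspa1a, Hspa8 and the bright Hsp90 probes had missing values, with intensities near the ceiling where a value was given, and Cct3 (0.13) and Cct5 (0.19) lost their calls without the probes near the ceiling. At the dim end, rounding to 0.01 leaves the fold of Dnajc22 and Dnajc30 (1.02 to 1.81 lower) loosely bounded. With 4 animals per group, a gene that missed the threshold is not shown to be equal in both groups.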
